A study of Mus musculus with 12 samples.

Results

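Described here are 10 genes of the circadian clock in the left ventricle of the mouse heart: Arntl (also called Bmal1), Clock, Npas2, Per1, Per2, Per3, Cry1, Cry2, Nr1d1 and Dbp. They were taken by name, with every probe set of the array that was annotated to one of these symbols alone, which gave 23 of 45101 probe sets. Of these, 19 probe sets of 9 genes were above the filter on low signal. Npas2 had 2 probe sets, and neither passed.

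Total RNA was taken from left ventricular free wall in outbred ICR mice aged 12 to 14 weeks, hybridised to Affymetrix Mouse Genome 430 2.0 arrays. A pump placed under the skin during ketamine and xylazine anaesthesia gave every animal 24 h of either vehicle (0.02% ascorbic acid) or verapamil, a blocker of the L-type calcium channel, at 3.6 mg per kg per day. There were 3 arrays in each of 4 groups, namely vehicle females, verapamil females, vehicle males and verapamil males. The design text speaks of arrays from females alone, but 6 samples are labelled male throughout, and the groups follow the labels. The labels give no hour of tissue collection and do not say how the arrays were spread over days, and p-values measure only the spread between these samples.

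In the clock, ARNTL pairs with CLOCK or NPAS2 and switches on genes that carry E-boxes in their promoters. Among these targets are the Per and Cry genes, whose proteins later shut the pair off, the repressor Nr1d1 (REV-ERB alpha), which holds Arntl down, and the transcription factor Dbp, which acts through D-boxes. In the mouse heart, as in liver, Arntl and Npas2 transcripts peak around the start of the rest phase, while those of Nr1d1, Dbp and the Per genes peak in turn through the rest phase and into the active phase. Arrays taken at very different hours would therefore place these arms apart, with Arntl and Npas2 high where Nr1d1, Dbp and Per are low.

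The stretches of promoter below hold letters that match kinds of element through which clock genes regulate one another. They are shown for the 5 members in whose promoters a full match was found, and binding or function of these sites was not tested. RefSeq promoters of build GRCm38.p6 were found for 9 of the 10 genes, as 13 windows. The 250 bases before each start site were searched on both strands for the E-box (CACGTG), the E-prime box (CACGTT), the D-box (TTATGTAA or TTACGTAA), the CRE (TGACGTCA), the core of the CRE (TGACG, which lies within it) and the ROR element. Each line is written 5′ to 3′ on the gene's own strand, with the matched letters in capitals.
Per1, chr11:69098763-69098808, plus strand: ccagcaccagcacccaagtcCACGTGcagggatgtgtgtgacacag
Per3, chr4:151044796-151044890, minus strand: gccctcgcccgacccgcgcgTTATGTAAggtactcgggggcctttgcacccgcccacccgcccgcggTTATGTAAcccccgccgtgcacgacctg
Cry1, chr10:85185089-85185153, minus strand: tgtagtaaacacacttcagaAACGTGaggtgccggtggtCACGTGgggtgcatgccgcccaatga
Cry2, chr2:92434210-92434255, minus strand: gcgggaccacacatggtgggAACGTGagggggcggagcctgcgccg
Nr1d1, chr11:98775380-98775425, minus strand: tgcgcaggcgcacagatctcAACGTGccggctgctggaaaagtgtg

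The E-box was found for 2 members, Per1 and Cry1, and its E-prime form (AACGTG when read on the other strand) for 3, Cry1, Cry2 and Nr1d1. Over all 32851 promoter windows, 6.02% held the E-box and 3.85% the E-prime box. Per3 had the D-box at 2 places, 205 and 158 bases before its start, where 0.931% of windows held one. No window of a member held the full CRE, found in 1.55% of all windows, or the ROR element, found in 0.332%. The CRE core, found in 17.8% of windows, lay before a start of Per1, Cry1 and Cry2. The windows of Arntl, Npas2, Clock and Dbp held none of these elements, which says only that the letters are not in this stretch.

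Signals are given as log2(signal + 7), so that 1 unit is close to a doubling, and a difference understates the change of dim probe sets. Median signals ran from 81.7 to 109.7 over the 12 arrays, the correlation between pairs of arrays from 0.932 to 0.958, and all 9 ventricular muscle markers were above the filter, at a summed signal of 246381 to 346898 per array. The number of arrays limits the precision. On the array's actin control, the ratio of the 3′ to the 5′ probe set, which is higher where RNA is shorter or less fully copied, was highest on 3 arrays. It reached 2.24 in male vehicle 1, 2.08 in female vehicle 1 and 1.77 in female verapamil 1, and it lay between 1.35 and 1.63 on the other 9. This is ventricular tissue of several cell types, and fewer cells of a type and less RNA per cell cannot be told apart.

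Arntl, the obligate partner of the activating pair, was at 7.51, 6.22 and 8.04 in female vehicle mice 1 to 3, at 7.71, 7.67 and 7.64 in verapamil females, at 7.36, 7.73 and 7.59 in vehicle males and at 7.30, 7.60 and 6.94 in verapamil males. Vehicle females held both its lowest array, female vehicle 2 with a signal of 67.4, and its highest, female vehicle 3 with 255. The lowest value lay 0.73 below the next one, 6.94 in male verapamil 3, and the other 10 arrays lay between 7.30 and 8.04. Npas2, which can replace Clock, was at or below 5.97 on all 12 arrays, from 3.75 in female verapamil 2 to that value in male verapamil 3, under the filter of 6.51. Its order across arrays is therefore of signals close to background. Its second probe set was at 3.44 to 4.33 on 11 arrays and at 5.90 in female vehicle 2. It was dimmer than the main one except there and in male verapamil 2 (4.13 against 3.76). Clock was the steadiest of these genes at 9.82, 9.46 and 9.85 in vehicle females, 9.76, 9.97 and 9.44 in verapamil females, 9.73, 9.89 and 9.48 in vehicle males and 9.87, 9.61 and 9.73 in verapamil males. Its highest array had 1.45 times the signal of its lowest, and all 4 groups overlapped.

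Nr1d1, the repressor that acts on Arntl, stood at 9.52, 9.89 and 10.21 in vehicle females, 10.04, 10.22 and 9.56 in verapamil females, 9.89, 9.73 and 9.23 in vehicle males and 9.44, 9.92 and 9.95 in verapamil males. The groups overlapped, and the lowest array, male vehicle 3, had a signal of 594 against 1186 in the highest, female verapamil 2. Dbp, a direct target whose transcript is known for one of the deepest daily swings in mouse tissues, was at 13.12, 13.11 and 12.81 in vehicle females, 13.26, 13.00 and 13.08 in verapamil females, 12.87, 12.88 and 12.37 in vehicle males and 12.46, 12.90 and 13.02 in verapamil males. Its signal lay between 5284 in male vehicle 3 and 9804 in female verapamil 1, a 1.86-fold range, and its second probe set spanned 1.64-fold. The lowest values of Dbp were those of male vehicle 3 and male verapamil 1, which also held the lowest and second lowest Nr1d1.

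Per1, a repressor subunit that also answers acutely to hormones and cyclic AMP, was at 9.47, 9.35 and 9.41 in vehicle females and 9.24, 9.25 and 8.79 in verapamil females, with no overlap. Its values in males were 9.61, 9.25 and 9.88 with vehicle and 9.15, 9.19 and 9.37 with verapamil, which overlapped. Per2 varied most of the 9 tested genes. It was at 8.13, 9.06 and 8.77 in vehicle females, 8.53, 8.71 and 7.22 in verapamil females, 8.45, 8.55 and 9.37 in vehicle males and 8.42, 9.27 and 9.67 in verapamil males, with a 5.70-fold range of signal from 142 in female verapamil 3 to 808 in male verapamil 3. Per3, the third repressor of the family, was at 9.55, 9.75 and 9.33 in vehicle females, 9.36, 9.64 and 8.59 in verapamil females, 9.08, 9.54 and 9.04 in vehicle males and 9.10, 9.35 and 9.76 in verapamil males. By their brightest probe sets, all 3 Per genes were lowest in the same animal, female verapamil 3. By the same probe sets, Per2 and Per3 were highest in male verapamil 3.

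Cry1, the repressor whose transcript peaks last, was at 7.91, 8.46 and 7.27 in vehicle females, 8.14, 8.08 and 7.69 in verapamil females, 7.66, 8.06 and 8.08 in vehicle males and 7.82, 8.35 and 8.27 in verapamil males. Vehicle females again held both extremes, in the reverse order to Arntl: female vehicle 2 was highest and female vehicle 3 lowest. Cry2 was at 8.45, 9.25 and 9.30 in vehicle females, 8.89, 9.24 and 8.86 in verapamil females, 9.02, 9.41 and 9.07 in vehicle males and 8.63, 9.37 and 9.48 in verapamil males. Its signal spanned 2.06-fold and that of Cry1 2.36-fold, with all groups overlapping.

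**Figure D1:**
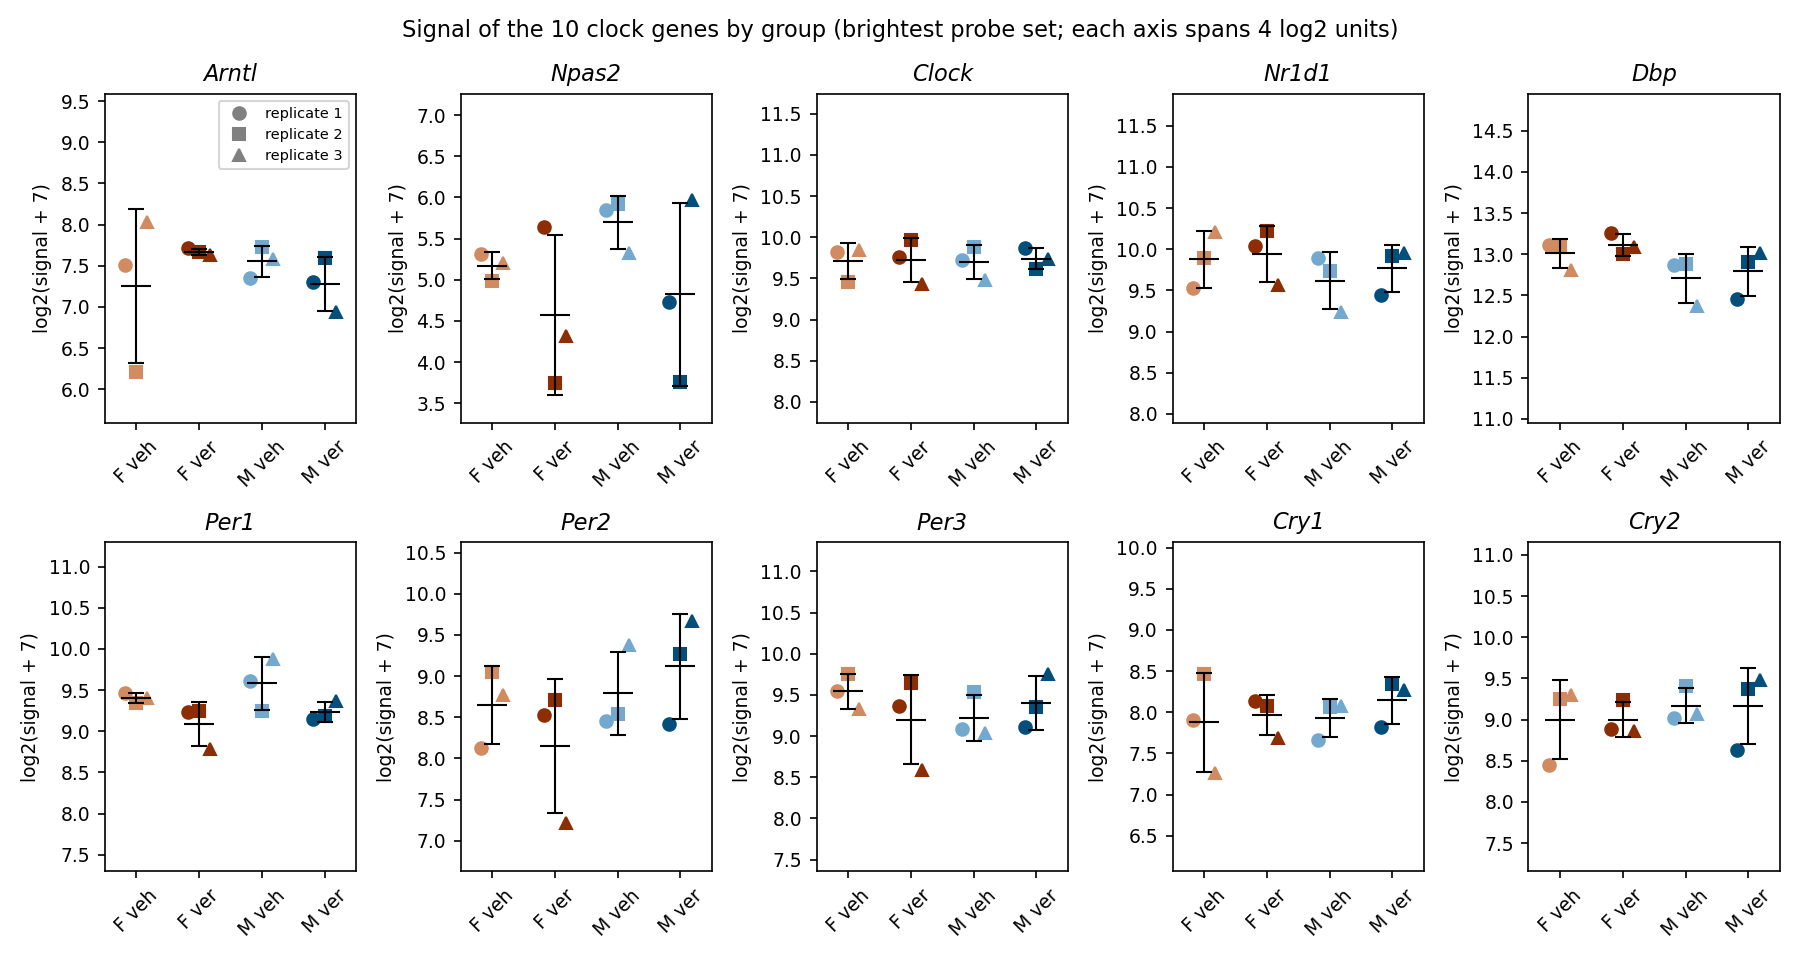
Each panel plots log2(signal + 7) of 1 clock gene by its brightest probe set for the 3 arrays of vehicle (veh) and verapamil (ver) females (F) and males (M), with the group mean and SD as black bars, and every axis spans 4 log2 units. Arntl is far lower in female vehicle 2 (6.22) than elsewhere, Per2 in female verapamil 3 (7.22), and between vehicle and verapamil only Per1 in females has groups that do not overlap.

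The spread between animals of a group was compared with that of the 22518 probe sets tested, whose median residual SD was 0.32. The residual SD was 0.51 for Arntl, 0.62 for Per2, 0.37 for Cry1, 0.36 for Cry2 and 0.36 for Per3. It was 0.33 for Nr1d1, 0.24 for Dbp, 0.22 for Per1 and 0.21 for Clock. A spread at least as large as that of Per2 was seen in 9.16% of tested probe sets, and one as large as that of Arntl in 17.1%. For Dbp the share was 73.1%, for Per1 78.6% and for Clock 80.5%. Among probe sets within 0.5 log2 units of the gene's own brightness the shares were 6.33% for Per2, 28.0% for Arntl and 46.6% for Dbp. Against the median of all tested probe sets, 6 of the 9 tested genes, all but Dbp, Per1 and Clock, varied more between animals. Among probe sets of like brightness, Dbp too was slightly above the median, and Per1 (74.9%) and Clock (73.7%) were below it. From its lowest to its highest array the signal of Nr1d1 spanned 1.99-fold and that of Per1 2.15-fold.

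**Figure D2:**
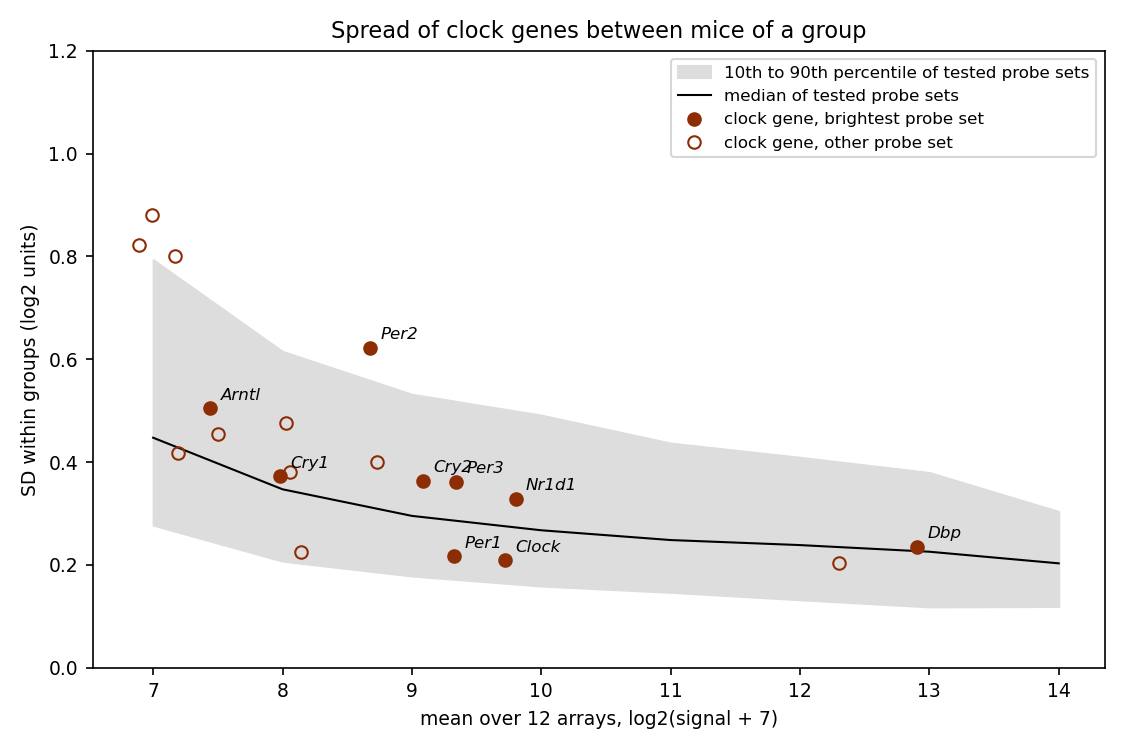
Points give the SD within groups of each tested probe set of the clock genes against its mean log2(signal + 7) over 12 arrays, filled for the brightest probe set of a gene and open for the others, over the 10th to 90th percentile band and median of all 22518 tested probe sets in bins of 1 log2 unit. Per2 (0.62) lies above the band and Arntl (0.51) above the median, while Clock (0.21) and Per1 (0.22) lie below it and Dbp (0.24) is close to it.

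To set the opposed arms against each other, the deviation of each gene's brightest probe set from its mean over the 12 arrays was taken. The mean of Per1, Per2, Per3, Nr1d1 and Dbp (the evening arm) was then subtracted from that of Arntl and Npas2 (the morning arm). This difference ran from −0.87 in female vehicle 2 to 0.59 in male vehicle 2. With the morning arm read from Arntl alone, since Npas2 was close to background, it ran from −1.44 in female vehicle 2 over −0.84 in male verapamil 3 to 0.50 in female vehicle 3 and 0.76 in female verapamil 3. The other 8 arrays lay between −0.05 and 0.31. By group, the difference with Arntl alone averaged −0.28 ± 1.03 (SD, n = 3) in vehicle females, 0.34 ± 0.37 in verapamil females, 0.15 ± 0.19 in vehicle males and −0.21 ± 0.55 in verapamil males, and the groups overlapped. No array of known hour is in the series, so the difference was not read as an hour.

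The arms were not clearly opposed from array to array. Arntl and the evening arm deviated to opposite sides of their means on 6 arrays and to the same side on 6. Male verapamil 1 was below the mean in all 5 evening genes (arm mean −0.30) and slightly below in Arntl (−0.14). Within the evening arm the genes also parted: male vehicle 3 had the highest Per1 (deviation 0.55) and a high Per2 (0.69) with the lowest Nr1d1 (−0.57) and Dbp (−0.54), and female verapamil 3 had the lowest Per genes with Dbp above its mean (0.18).

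**Figure D3:**
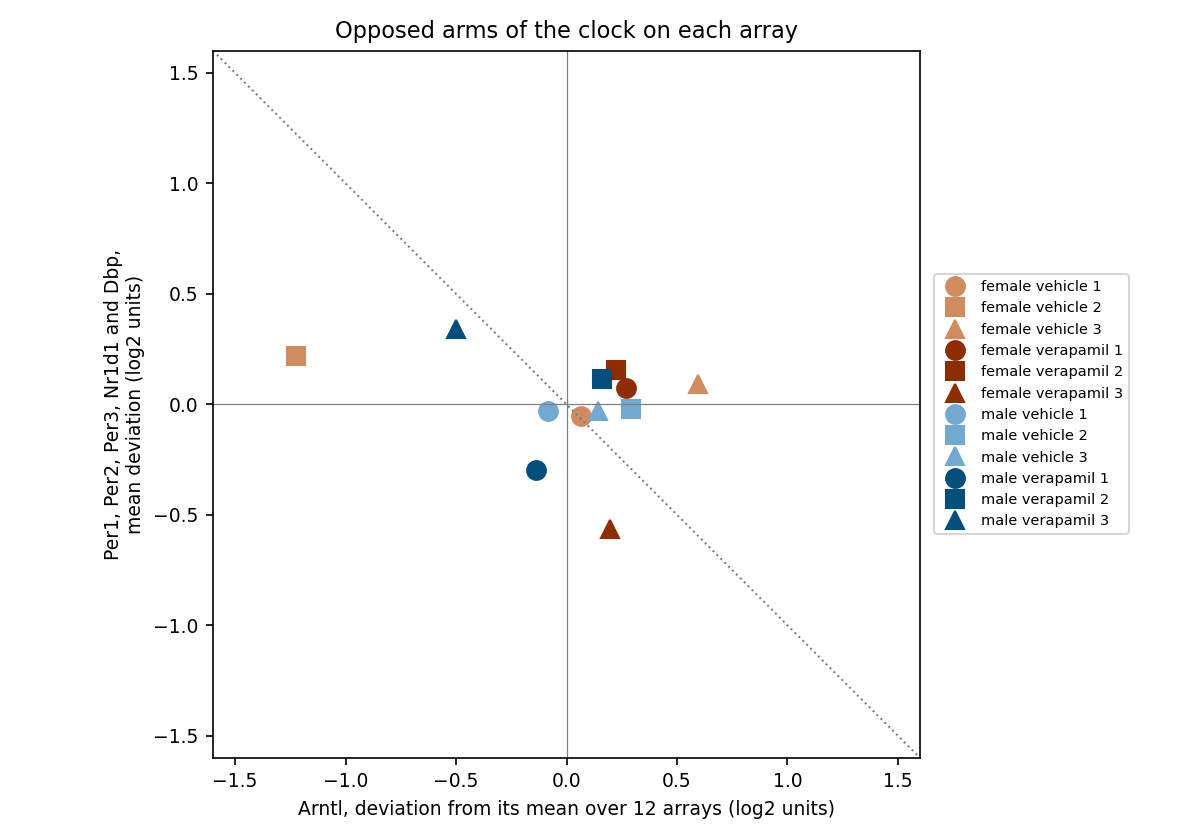
Each point is 1 array, placed by the deviation of Arntl from its mean over 12 arrays and by the mean deviation of Per1, Per2, Per3, Nr1d1 and Dbp, both in log2 units, with colour for the group, shape for the replicate and a dotted line of slope −1 for exactly opposed arms. Most arrays gather near the centre, while female vehicle 2 (Arntl −1.23, evening arm 0.22), male verapamil 3 (−0.50, 0.34), female verapamil 3 (0.20, −0.56) and female vehicle 3 (0.59, 0.09) lie further out.

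Correlations between members were computed for all 45 pairs over the 12 arrays, which share one scaling per array, with permutation tests. None passed after Benjamini-Hochberg adjustment, and 2 had an unadjusted permutation p under 0.05. The 5 pairs of Arntl with an evening gene had r from −0.40 (Per3) to 0.07 (Nr1d1), with 4 below 0. For Arntl and Per3 the permutation p was 0.198 (adjusted 0.577), Spearman's rho was −0.23 (permutation p = 0.473, adjusted 0.887), and r was 0.25 without the 2 arrays farthest from the median of Arntl, female vehicle 2 and male verapamil 3. The relation rests on those arrays. Within sexes it was −0.43 in females and −0.34 in males, over 6 arrays each.

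The closest pair was Per2 and Cry2, with r = 0.63 (permutation p = 0.0276, adjusted 0.488) and rho = 0.79 (permutation p = 0.0035, adjusted 0.156). It was 0.63 without the 2 arrays farthest from the median of Per2, 0.60 in females and 0.58 in males. Per2 and Per3 had r = 0.60 (permutation p = 0.042, adjusted 0.488) and rho = 0.38 (permutation p = 0.225, adjusted 0.793), and r was −0.09 without female verapamil 3 and male verapamil 3, so that this relation rests on them. In females it was 0.88 and in males 0.44. Nr1d1 and Dbp had r = 0.54 (permutation p = 0.0678, adjusted 0.488) and rho = 0.30 (permutation p = 0.343, adjusted 0.836). It was −0.43 in females, 0.97 in males and −0.25 without male vehicle 3 and male verapamil 1. Arntl and Cry1, which had opposite extremes in vehicle females, gave r = −0.59 (permutation p = 0.0504, adjusted 0.488), rho = −0.33 (permutation p = 0.297, adjusted 0.793), −0.77 in females and 0.02 in males, and r was −0.26 without the 2 arrays farthest in Arntl.

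Of the 18 extremes of the 9 tested genes, the lowest and the highest array of each by its brightest probe set, 12 lay on 4 arrays, in different genes. The 4 arrays were picked from these same values, so the count is a description and not a test. Female vehicle 2 had the lowest Arntl (6.22) with all 5 evening genes above their means, by 0.02 (Per1) to 0.41 (Per3). It also had the highest Cry1 (8.46) and the highest Nr1d2 (13.41, a close relative of Nr1d1). Male verapamil 3 had the second lowest Arntl (6.94), again with all 5 evening genes above their means, by 0.04 (Per1) to 0.99 (Per2). It also had the highest Per2, Per3, Cry2 and Ciart, a repressor of the loop. Female verapamil 3 had the lowest Per1, Per2, Per3 and Clock, and also the lowest Rora, Bhlhe40 and Tef, which are an activator of Arntl, a repressor of E-box genes and a D-box factor. Male vehicle 3 had the lowest Nr1d1 and Dbp and the highest Per1, with the highest Rora, Bhlhe41, Nfil3 and Tef. Other tested probe sets did not always share these extremes. That of Tef was at 9.61 in female verapamil 3 and lowest in female vehicle 1 (6.99). Those of Clock were lowest in male vehicle 3 and female vehicle 2 and second lowest in female verapamil 3. That of Nr1d2 was highest in male vehicle 2 (10.41, against 10.18 in female vehicle 2). That of Dbp was lowest in male vehicle 1 (11.94), against 12.12 in male vehicle 3. The mean absolute deviation in units of each gene's SD over the 9 tested genes was largest in female verapamil 3 (1.27), male vehicle 3 (1.09) and female vehicle 2 (0.99), against 0.45 to 0.85 on the other 9 arrays.

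Other measures are given for female verapamil 3 and male vehicle 3, and arrays outside these 4 also stood apart in some. The mesothelium markers summed to 11284 in female verapamil 1 and to 3095 to 9582 elsewhere. The tested heat shock and cold response genes had a mean deviation of 1.23 in male verapamil 2, against −0.41 to 0.51 elsewhere. Female verapamil 3 had the highest signal of atrial muscle markers: all 6 were on the array, 4 were above the filter, and their summed signal was 54078 there, against 6525 and 12892 in the other verapamil females, 7538 to 18469 in vehicle females, 12201 to 22153 in vehicle males and 2555 to 24095 in verapamil males. Male vehicle 3 had the highest glucocorticoid targets, with a mean deviation over the 12 genes of 0.50 against −0.27 to 0.25 on the other arrays. On this array 10 of the 12 were above their means and 7 at their highest. The other 2 went the other way: Lcn2 was at its lowest there (8.85, against up to 10.19) and Pdk4 was at 11.37, below its mean of 11.81. Fkbp5, a chaperone cofactor induced by the glucocorticoid receptor, was at 11.32 there and at 9.48 to 10.60 elsewhere. Their part in the clock values was not tested.

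Probe sets of a gene did not always follow one another, and some of them moved with the actin ratio. The second Arntl probe set, below the filter, was at 4.17 to 5.70 on the 3 arrays of highest actin ratio and at 6.07 to 7.02 on the other 9, and had r = −0.16 with the main one. It did not show the low value of female vehicle 2, where it was at 6.97. Nor did it show that of male verapamil 3, where it was at its highest (7.02). A second probe set of Per2 was at 5.43 to 6.08 on the 3 arrays and 5.75 to 7.88 on the others, and one of Clock was higher on the 3 (9.05 to 9.27) than on the others (8.25 to 8.95). Over the 12 arrays their correlation with the log2 ratio was −0.89 for this Arntl probe set, −0.74 for that of Per2 and 0.82 for that of Clock, given as a description. Among the 10 brightest probe sets the nearest was Cry2 with r = −0.62 (permutation p = 0.0292, adjusted 0.292) and rho = −0.61 (permutation p = 0.0409, adjusted 0.204), and r was −0.62 without the 2 farthest arrays. For Per2 r was −0.44 (permutation p = 0.16, adjusted 0.532) and rho −0.73 (permutation p = 0.0101, adjusted 0.101), with r of −0.46 without the 2 farthest arrays. None of the 10 passed after adjustment.

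**Figure D4:**
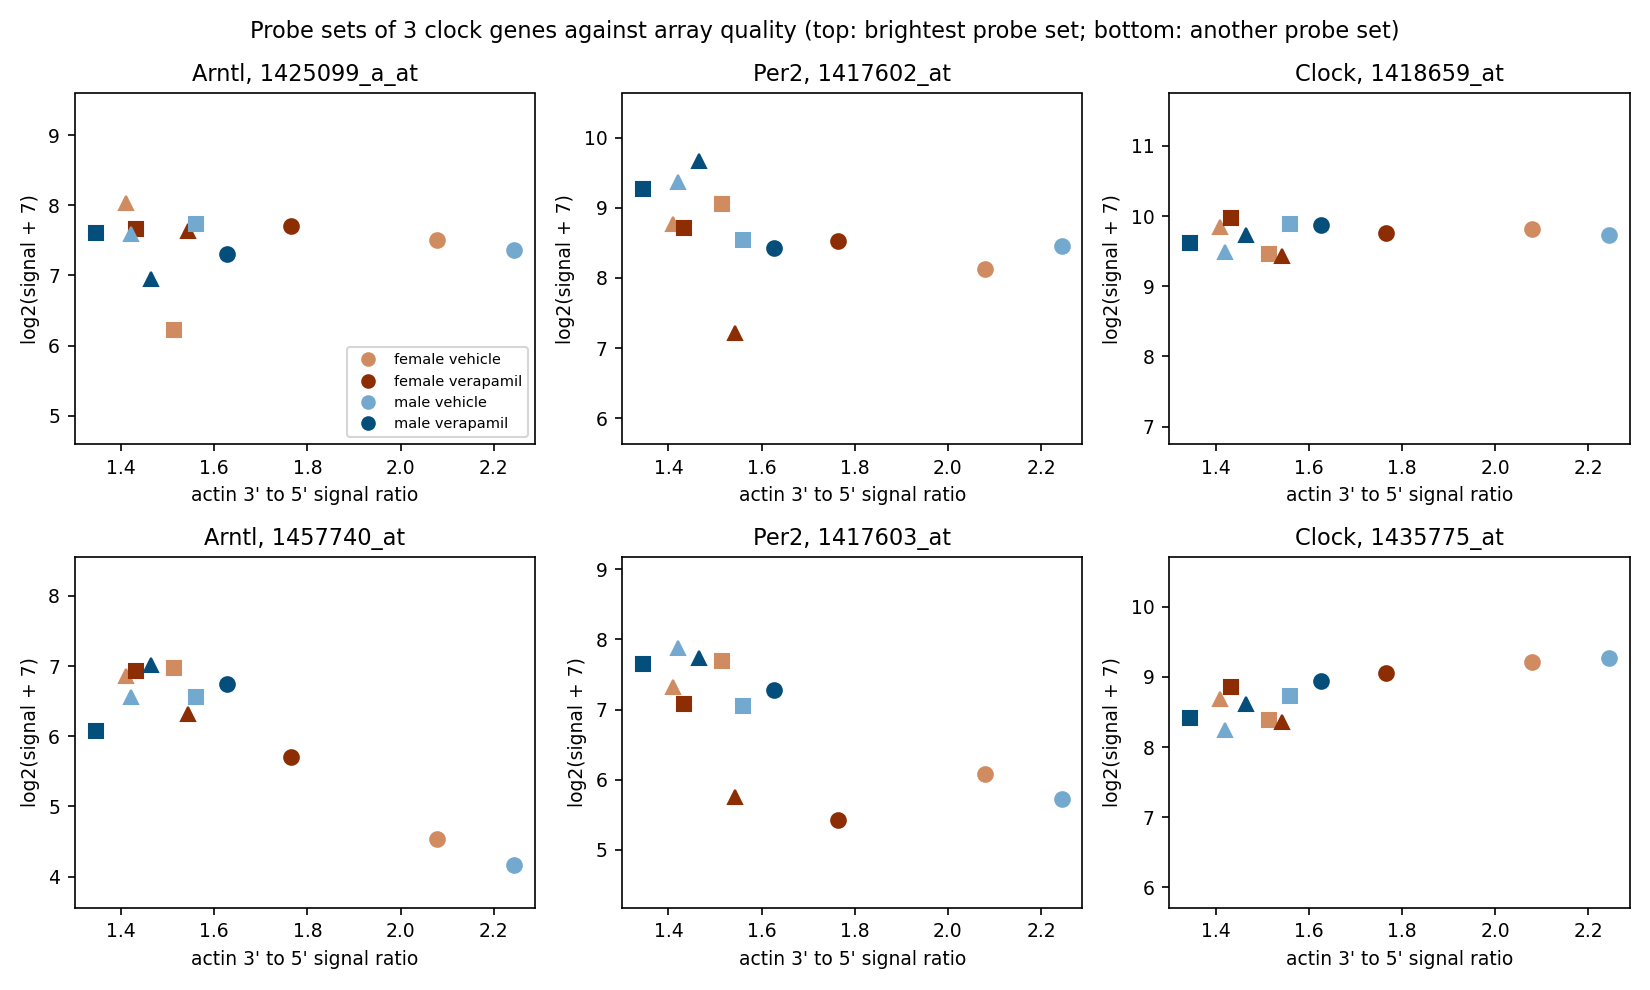
Each point is 1 array, placed by the ratio of its 3′ to 5′ actin control signals and by log2(signal + 7) of a probe set of Arntl, Per2 or Clock, the brightest above and another below, with colour for the group and shape for the replicate. The lower Arntl probe set is at 4.17 to 5.70 on the 3 arrays of highest ratio and the lower Clock probe set reaches 9.05 to 9.27 there, while the brightest ones overlap between these arrays and the others.

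Whether a day of calcium channel blockade altered the clock transcripts was tested with limma over all 22518 probe sets, and no member passed in either sex. In females 0 probe sets (0%) passed after adjustment at 0.05, and 510 (2.26%) were below 0.05 before it. The 9 tested members gave 0 at either level. Arrays of the groups did not overlap for 6.28% of all probe sets, with 2.99% higher and 3.29% lower under verapamil, and for 1 of 9 members, Per1, which was lower. The difference, verapamil minus vehicle, was −0.32 for Per1 (SE 0.20, 95% interval −0.75 to 0.11), −0.50 for Per2 (SE 0.42), −0.35 for Per3 (SE 0.27) and 0.11 for Dbp (95% interval −0.29 to 0.50), each with an adjusted p of 1 by limma. Arntl differed by 0.42 (SE 0.38), and by −0.10 when female vehicle 2 was left out. Over the 9 members 5 differences were above and 4 below 0, with a median of 0.01, against −0.01 over all probe sets.

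In males 0 probe sets (0%) passed the adjusted test, 612 (2.72%) were below 0.05 before adjustment, and the members gave 0 at either level. Groups did not overlap for 8.03% of all probe sets, 3.94% higher and 4.09% lower, and for 0 of 9 members. Per1 differed by −0.35 (SE 0.20, 95% interval −0.78 to 0.08), Arntl by −0.28 and Per2 by 0.33, each with an adjusted p of 1 by limma. The interval for Dbp was −0.31 to 0.48 around 0.09. Over the members 6 differences were above and 3 below 0, with a median of 0.09, against 0.01 over all probe sets.

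Averaged over the sexes, Per1 had the lowest p of the members, with a difference of −0.33 (SE 0.14), an unadjusted p of 0.0345 and an adjusted p of 1 by limma. It was the 1 member of 9 with an unadjusted p under 0.05, a level that 3.18% of all probe sets reached, and 0% passed the adjusted test. The other 8 averaged differences lay between −0.08 and 0.15. The difference between the sexes in the effect of verapamil was tested as an interaction, in which 0% of probe sets passed and 1.97% had an unadjusted p under 0.05. Members gave from −0.83 for Per2 (95% interval −2.12 to 0.46) to 0.69 for Arntl (−0.46 to 1.84), and 0.03 for Per1 (−0.58 to 0.64), all with an adjusted p of 1 by limma. In vehicle mice 7 probe sets (0.0311%) differed between males and females, none of them of a member, and 2.48% were below 0.05 before adjustment, with 0 of 9 members. Vehicle groups of the sexes did not overlap for 6.94% of probe sets (3.16% higher and 3.78% lower in males) and for 0 of 9 members by their brightest probe sets. The members' differences lay between −0.32 and 0.30.

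Among the other probe sets of the members, one of Per3 was higher with verapamil in females, at 7.95, 7.53 and 7.80 against 7.23, 6.09 and 7.12, with no overlap. The difference was 0.94 (SE 0.35), with an unadjusted p of 0.0176 and an adjusted p of 1 by limma. In males it differed by −0.32, and it had r = −0.45 over the arrays with the brightest Per3 probe set, so that the probe sets of Per3 disagreed. Without drug it was already lower in females than in males, at 7.95, 7.45 and 8.22 in vehicle males, with no overlap. That sex difference was 1.06 (SE 0.35, unadjusted p of 0.00915 by limma), and the interaction was 1.26 (unadjusted p of 0.0233 by limma). Neither passed after adjustment. Another Per3 probe set was higher with verapamil in males by 1.21 (SE 0.60, adjusted p of 1 by limma) without overlap, at 7.35, 7.48 and 7.82 against 4.54, 7.20 and 7.28. The lowest of these was male vehicle 1, the array of the highest actin ratio. The other 8 of the 10 further tested probe sets overlapped in each sex, with differences of −0.95 to 1.02 in females and −0.49 to 0.66 in males. With the brightest probe set of their gene, the Per3 probe sets had r of 0.66, 0.51, 0.30, 0.13 and −0.45, and those of Per2 0.76 and 0.20.

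**Figure D5:**
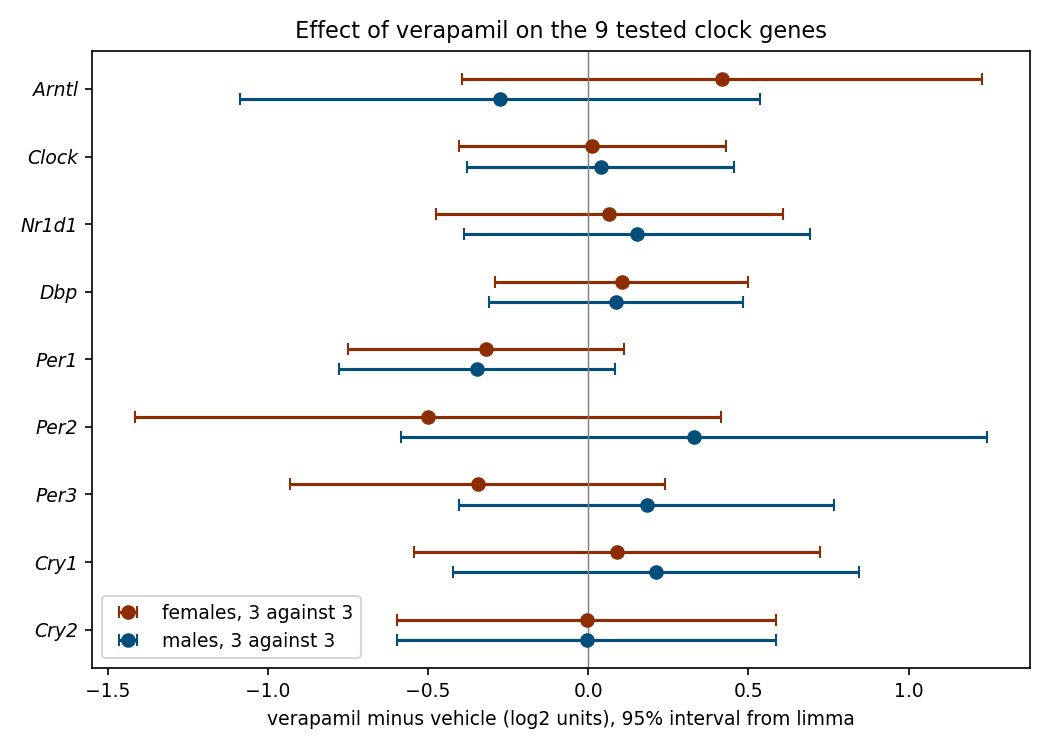
Points give the limma difference between verapamil and vehicle in log2 units for the 9 tested clock genes in females and in males, with 95% intervals, 3 arrays against 3. Every interval includes 0, Per1 lies below 0 in each sex (−0.32 and −0.35), and Per2 and Arntl have opposite signs in the sexes.

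The other regulators of the loop, 12 genes of which 9 were tested, gave 0 calls in either direction in each sex by limma. In females 3 lay above and 6 below 0 with a median of −0.07, and the smallest p was that of Rora, an activator of Arntl, which differed by −0.38 (SE 0.20) without overlap of the groups. In males 5 lay above and 4 below 0 with a median of 0.01. Kinases and ubiquitin ligases that set the stability of clock proteins, 10 tested of 12, gave 0 calls, with 3 above and 7 below 0 in females (median −0.11) and 2 above and 8 below in males (median −0.16). Csnk2a1, the catalytic subunit of casein kinase 2, had the smallest p of the list in males. It was higher with verapamil without overlap of the groups in females, by 0.16 (SE 0.15), and in males, by 0.31 (SE 0.15), and averaged over the sexes by 0.24 (unadjusted p of 0.0483, adjusted p of 1 by limma). Csnk1d, which phosphorylates PER, differed by −1.19 (SE 0.59) in males with overlapping arrays. Output genes of the clock, 18 tested of 20, also gave 0 calls, with medians of −0.11 in females and −0.05 in males. Pdk4, which restrains glucose oxidation in the heart, had their smallest p in each sex. It was at 11.76, 11.84 and 12.18 in vehicle females and 11.28, 10.93 and 11.39 in verapamil females, a difference of −0.73 (SE 0.31, adjusted p of 1 by limma), and it differed by 0.56 in males.

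The genes whose pattern over the 12 arrays was most like that of Arntl, out of 11501 tested genes by their brightest probe set, were Dlgap3 (r = 0.82), E130311K13Rik (0.81), Esrra (0.80), Ptpro (0.80) and C130046K22Rik (0.79). Most unlike it were Abcg2 (−0.89), Mcm6 (−0.86), Zdhhc16 (−0.81), Gm15408 (−0.80) and Clk4 (−0.78). Without female vehicle 2 and male verapamil 3, the 5 highest came to −0.23 to 0.47, and the 5 lowest to −0.43 to −0.81. Of the other clock genes, Nr1d2 had the lowest r with Arntl (−0.64), followed by Cry1 (−0.59) and Usp2 (−0.47), which encodes a deubiquitinase with a daily rhythm. For Dbp the most alike were 4833420G17Rik (r = 0.90), Snai2 (0.88), Afmid (0.87), B3gnt9 (0.86) and Afap1l2 (0.86), which came to 0.40 to 0.79 without male vehicle 3 and male verapamil 1. Most unlike were Ccdc189 (−0.83), Cog5 (−0.81), Lrig3 (−0.80), Bag2 (−0.80) and Tsg101 (−0.79), which came to −0.17 to −0.78 without the same arrays. Clock genes known to swing with Dbp were not among them, and Nr1d1 ranked 486th by r.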

How the data were processed

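The series holds 12 arrays of mouse left ventricle, 3 in each of 4 groups by sex and treatment, grouped by the labels. The deposited table gives the authors' intensity of 45101 probe sets per array on a linear scale. Its trimmed mean, leaving out 2% at each end, was 500 on every array, so the authors had scaled the arrays, and the algorithm is not given in the sources used here. Values were used as log2(signal + 7) with no further normalization. Probe sets were named from the platform annotation (34958 with 1 symbol, 932 with several, 9211 with none), and the 64 controls were left out of tests. Probe sets with a mean above the median, 6.51 (a signal of 84.0), were tested: 22518, of which 20088 have 1 symbol. A model with 4 groups was fitted with limma 3.58.1 in R 4.3.3 with an intensity trend in the variances and Benjamini-Hochberg adjustment over all tested probe sets. Correlations used 100000 permutations in scipy 1.17.1. On simulated data for the comparison in females, with 50 of 22518 probe sets changed at each size, 6% were recovered at 1.5-fold, 32% at 2-fold, 64% at 3-fold and 76% at 4-fold, with 6 false calls.

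The text names all 10 members, with values by array for the brightest probe set and summaries or ranges for the others. Of each list it names every gene past the test or otherwise some of the 4 of smallest p, and it names the 5 highest and 5 lowest in likeness to Arntl and to Dbp. The members and the lists were chosen with earlier results of these data known. Alternatives were another pseudocount (1 or 25), quantile normalization, other filters, no trend, array weights, a replicate block, the actin ratio as a covariate, leaving out the 3 arrays of highest ratio or each array in turn, and the mean of a gene's probe sets.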

Additional observations from a re-analysis of the deposited data

How the results depend on the processing

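Each member's difference in females, in males and averaged, 27 values, was recomputed under the alternatives. Of 288 values 280 had the direction reported, and 8 did not: Per3 in females (0.20) and averaged (0.17) and Clock in males (−0.057) with the mean of a gene's probe sets, Nr1d1 in females (−0.16) without the 3 arrays of highest actin ratio, Cry2 in females (0.012) with quantile normalization, and Clock in males (−0.063), Per2 averaged (0.15) and Per3 averaged (0.038) with array weights. No member passed the test under any of them. The causes were not tested.

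Leaving out each array in turn turned 36 of 324 values, with these ranges. In females they were −0.10 to 0.81 for Arntl, −0.11 to 0.26 for Nr1d1, −0.11 to 0.16 for Clock, −0.22 to 0.38 for Cry1 and −0.28 to 0.14 for Cry2. In males they were −0.041 to 0.32 for Nr1d1, −0.082 to 0.26 for Dbp, −0.068 to 0.13 for Clock and −0.16 to 0.26 for Cry2. Averaged, they were −0.19 to 0.27 for Arntl, −0.22 to 0.15 for Per2, −0.19 to 0.071 for Per3, −0.036 to 0.097 for Clock, −0.003 to 0.30 for Cry1 and −0.14 to 0.13 for Cry2. Per1 kept its sign, at −0.40 to −0.17 in females, −0.51 to −0.20 in males and −0.42 to −0.26 averaged. The correlation of Arntl ranged from −0.26 to 0.071 with Dbp, −0.12 to 0.26 with Nr1d1 and −0.18 to 0.015 with Per1.

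The count of probe sets past the test was 1 in females without the 3 arrays of highest actin ratio, 0 to 2 in males when each array was left out (2 without male verapamil 2) and 0 for the sexes in vehicle mice with the filter at the 75th percentile. The replicate block gave 0 calls in 4 comparisons and 7 for the sexes. Deviations of same-numbered vehicle and verapamil arrays correlated by 0.32, 0.18 and 0.12 in females and 0.15, 0.08 and 0.13 in males, and those of vehicle females and males by 0.42, 0.15 and 0.19. The labels give female vehicle 1 no number, and 1 pair of males was under 0.1, so the arrays were not taken as pairs. The range of the arm difference over arrays, highest minus lowest, was 1.46 log2 units. It was 2.98, in SD units, with each gene divided by its SD. With Arntl alone, an alternative chosen after seeing the data, it was 2.20 log2 units. With 3 arrays a group, changes of 2-fold or less would mostly be missed. On the simulated data for females 32% were recovered at 2-fold and 64% at 3-fold.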

Other observations

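Genes that answer to heat, stress hormones and handling were read beside the clock. Of the heat shock and cold response genes, 8 were tested of 10, and by limma 0 were called in either sex. All 8 lay below 0 with verapamil in females (median −0.24) and 7 of 8 above 0 in males (median 0.30). In males Hspa1b, an inducible chaperone, was at 8.23, 12.72 and 10.67 with verapamil and 8.26, 8.78 and 9.29 with vehicle, and Hspa1a was at 6.66, 10.56 and 8.64 against 6.58, 7.21 and 7.38. Male verapamil 2 was highest in each, and the groups overlapped.

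Of the immediate early genes, 11 were tested of 14, and 0 were called. Btg2, an antiproliferative gene induced by many stimuli, was at 9.05, 9.51 and 9.53 in vehicle females and 10.14, 10.05 and 9.99 in verapamil females, and at 10.10, 10.24 and 10.86 in vehicle males and 9.54, 9.47 and 9.77 in verapamil males. Groups did not overlap in either sex, in opposite directions. The difference between these effects was 1.51 (SE 0.30), with an unadjusted p of 0.00025 and an adjusted p of 1 by limma. The medians of the list were 0.14 in females and −0.27 in males. All 12 glucocorticoid targets were tested, with 0 calls and medians of −0.13 in females and −0.06 in males.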
